A study of Homo sapiens with 6 samples.

Results

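Immediate early genes and regulators of messenger RNA decay were followed in F36P cells, a human cytokine-dependent leukaemia line with erythroid features. The set holds 10 of the 16315 genes in the count table: FOS, FOSL2, JUN, JUNB, EGR1, IER2, ZFP36, TRIB1, BTG1 and BTG2. They were chosen by name, with the fold changes of these same libraries already known, so the values between the guides below are a description of the set and no independent support for it. All 10 passed the filter on low values, a mean of at least 1 CPM (the gene's counts scaled to a common library total) over the 6 libraries.

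Guide plasmids with a puromycin resistance gene were brought into the cells by transduction. In 3 libraries the guide targeted HDAC7, one of the class IIa deacetylases, and the genotype label is HDAC7 knockout (sgHDAC7). In the other 3 it was a non-targeting guide, with the genotype label WT (sgNT). Both groups were selected in puromycin at 1 µg/ml over 4 days, after which total RNA was taken and its poly(A) fraction sequenced. The labels do not say whether a library came from 1 clone or from a mixed population. HDAC7 messenger RNA stood at 194, 239 and 246 CPM in sgHDAC7, against 450, 460 and 462 CPM in sgNT (log2 -1.02 ± 0.09, SE). By edgeR the adjusted p of this fall was 0.00139; the message was lowered, not absent.

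Library totals were 11645003 to 12521195 counts in sgHDAC7 and 10039693 to 11149179 counts in sgNT, so that 3 counts equal 0.24 to 0.299 CPM. All 11 markers of F36P and the erythroid state were in the table, summing to 14000 to 18100 CPM in sgHDAC7 and 9760 to 14200 CPM in sgNT. Most of that sum was the fetal globin gene HBG2, with 9070 to 13000 CPM in sgHDAC7 and 5660 to 9240 CPM in sgNT. Of the 11 markers, 0 rose and 1 fell with group alone: CSF2RA, a chain of the GM-CSF receptor (log2 -0.90 ± 0.19, edgeR adjusted p = 0.0399). CSF2RA missed the threshold in 5 of 6 fits with a library left out (edgeR adjusted p = 0.0584 to 0.183). The CSF2RA log2 ratio of sgHDAC7 to sgNT was -0.22 in replicate 1 and -1.17 over replicates 2 and 3. With a replicate 1 term 3 of the 11 were higher and 1 lower. Of all genes tested, 2.86% were called with group alone and 12.6% with that term. Of the lymphoid markers 3 of 7 were in the table, at 14.2 to 19.5 CPM in sum in sgHDAC7 and 17.7 to 18.1 CPM in sgNT. Of the stromal and epithelial markers 5 of 8 were present, at 22.1 to 45.9 CPM in sgHDAC7 and 11.2 to 75.1 CPM in sgNT. The others are not analysed here. Most of this sum was the 1 gene CDH1, at 19.8, 42.6 and 40.6 CPM in sgHDAC7 and 7.02, 69.6 and 63.2 CPM in sgNT. Most of the lymphoid sum was CD79A. The part of these markers in the results was not tested. Replicate 1 of each guide stood apart from replicates 2 and 3 (chi-square per degree of freedom 7.74 to 15.4, against 3.2 and 3.5 between replicates 2 and 3), and results are given with and without it. In bulk RNA, fewer cells that express a gene and less RNA per cell cannot be told apart.

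Immediate early genes are transcribed as soon as a cell is stimulated, without new protein synthesis, through factors such as SRF, ELK and CREB that already sit at their promoters. Their messages are short-lived: AU-rich elements in the 3′ untranslated region (3′ UTR) are bound by ZFP36 (tristetraprolin), which brings in the CCR4-NOT deadenylase, and BTG1 and BTG2 link that deadenylase to poly(A)-binding protein. FOS and JUN proteins dimerise into the transcription factor AP-1.

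Between the guides, 4 of the 10 genes passed edgeR's quasi-likelihood test at an adjusted p under 0.05: ZFP36 and TRIB1 were higher in sgHDAC7, and FOSL2 and BTG1 were lower. Among all 13841 genes tested, 396 passed (2.86%). The groups did not overlap for 6 of the 10 genes, against 25.1% of all genes tested. The median log2 fold change was 0.26 over the 10 genes and -0.0016 over all genes, and the median size without sign was 0.52 and 0.15. With a term for replicate 1, 6 of the 10 passed, FOS and JUNB in addition, both higher, against 12.6% of all genes. When any 1 of the 4 libraries of replicates 2 and 3 was left out, 0 of the 10 genes passed edgeR (4 or 5 had an unadjusted p under 0.05). Without sgHDAC7 replicate 1, 3 passed, and without sgNT replicate 1 all 4 did. They are labelled as biological replicates, and nothing says that they were grown apart, so the p-values may cover technical spread alone.

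**Figure D1:**
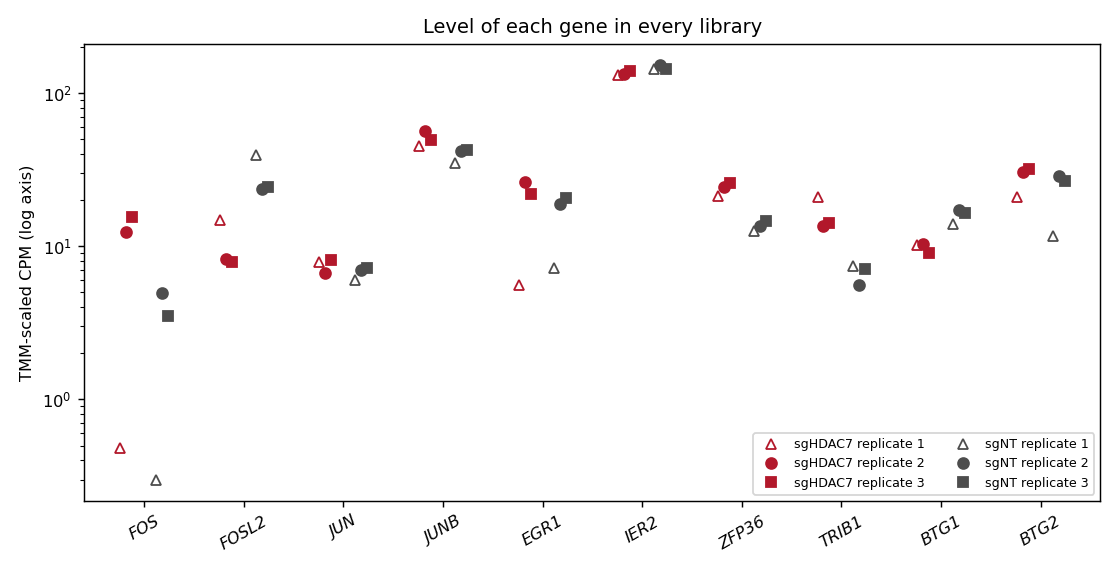
TMM-scaled CPM (log axis) of the 10 genes in each library, sgHDAC7 in red to the left of sgNT in grey, with replicate 1 as open triangles and replicates 2 and 3 as filled circles and squares. FOS ran from 0.296 to 15.5 CPM with both replicate 1 libraries at the bottom, while IER2 stayed between 132 and 153 CPM in all 6.

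The FOS family supplies one side of the AP-1 dimer. FOS (chr14:75278774-75282230, GRCh38, plus strand) stood at 0.483, 12.3 and 15.5 CPM in sgHDAC7 replicates 1, 2 and 3, against 0.296, 4.94 and 3.52 CPM in sgNT. The groups overlapped, because replicate 1 was low under both guides, while sgHDAC7 replicates 2 and 3 lay above all sgNT libraries. The means were 9.46 ± 7.93 CPM in sgHDAC7 and 2.92 ± 2.38 CPM in sgNT (SD, n = 3 each). With group alone the log2 fold change of 1.67 ± 0.91 (SE) gave an edgeR adjusted p of 0.356. Once replicate 1 had its own term it was 1.66 ± 0.24, at an edgeR adjusted p of 0.00101. The replicate 1 value rests on 6 counts in sgHDAC7 and 3 in sgNT, a ratio of 1.63 with an exact 95% interval of 0.348 to 10.1 for counting error alone.

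FOSL2 (chr2:28392448-28417312, plus strand), which encodes the Fos-related protein FRA2, moved the other way. It stood at 14.8, 8.20 and 7.93 CPM in sgHDAC7, against 39.6, 23.5 and 24.3 CPM in sgNT. Each sgHDAC7 library lay below every sgNT library, and in both groups replicate 1 was the highest. FOSL2 fell 2.82-fold (log2 -1.49 ± 0.28, edgeR adjusted p = 0.028). The ratio was -1.39 on the log2 scale in replicate 1 and -1.51 over replicates 2 and 3. An antisense gene, FLJ31356, overlaps FOSL2, and the use of strand in counting is not given in the sources used here, so reads of the 2 genes cannot be told apart.

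JUN and JUNB supply the other side of the dimer. JUN (chr1:58780788-58784327, minus strand) had 7.89, 6.73 and 8.17 CPM in sgHDAC7, against 6.03, 7.01 and 7.22 CPM in sgNT. The groups overlapped and the log2 difference was 0.17 ± 0.17 (edgeR adjusted p = 0.638), with no call in any of the alternatives run. JUNB (chr19:12791496-12793315, plus strand) had 44.9, 56.7 and 49.1 CPM in sgHDAC7, against 34.8, 41.9 and 42.2 CPM in sgNT. The sgHDAC7 libraries were all above the sgNT libraries, by a small margin. The log2 difference of JUNB, 0.34 ± 0.11, did not pass (edgeR adjusted p = 0.141). In the fit with a replicate 1 term it did (0.34 ± 0.08, edgeR adjusted p = 0.0171). HOOK2, which overlaps JUNB on the other strand, averaged 16.6 ± 2.63 CPM in sgHDAC7, against 17.5 ± 1.44 CPM in sgNT.

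EGR1 and IER2 are immediate early genes outside AP-1. EGR1 (chr5:138465490-138469315, plus strand), a zinc finger transcription factor, had 5.56, 26.4 and 21.9 CPM in sgHDAC7, against 7.21, 19 and 20.6 CPM in sgNT. Replicate 1 was low under both guides, and the groups overlapped. The log2 fold change was 0.20 ± 0.50 (edgeR adjusted p = 0.87). It was -0.20 without sgHDAC7 replicate 2 and -0.14 without sgNT replicate 1, so the direction is not set. IER2 (chr19:13150415-13154908, plus strand), a nuclear protein, was the most abundant of the 10 per kilobase of exon, with 132, 134 and 139 CPM in sgHDAC7, against 144, 153 and 143 CPM in sgNT. The groups did not overlap, but the log2 difference of -0.12 ± 0.06 did not pass (edgeR adjusted p = 0.331). An antisense gene, AC011446.2, overlaps IER2.

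**Figure D2:**
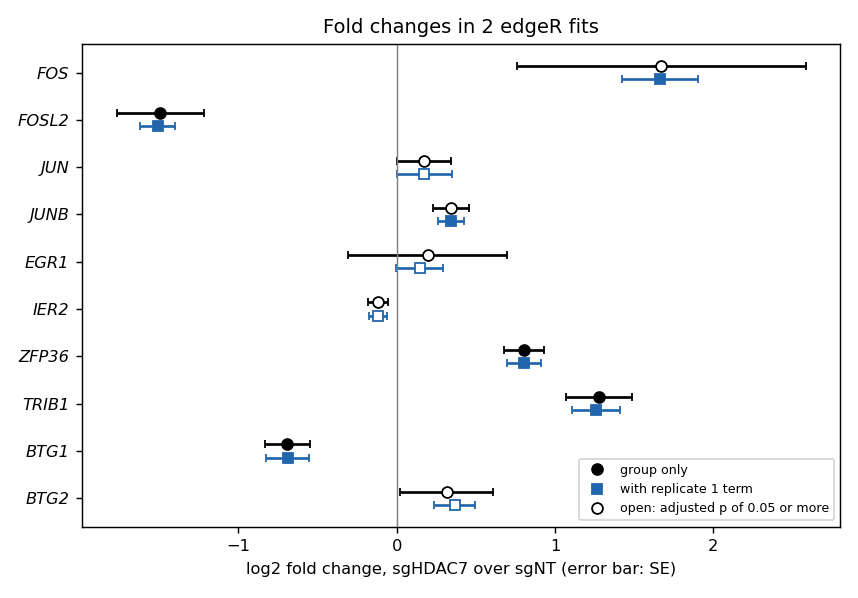
Log2 fold change of sgHDAC7 over sgNT for each of the 10 genes with its standard error, from edgeR with group only (black circles) and with a replicate 1 term (blue squares); open symbols did not pass an adjusted p of 0.05. FOS kept its value (1.67 and 1.66) while its standard error was 0.91 in the first fit and 0.24 in the second.

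Promoters are shown for 5 genes that differed between the guides or between replicates, because SRF, AP-1 and MEF2 act on immediate early genes there, and MEF2 is a known partner of class IIa deacetylases. RefSeq (GRCh38.p14) gave 9 of the 10 promoters, 250 bases before to 50 after the start. TRIB1 was not matched. Capitals mark matches on either strand to the CArG box (the SRF site), TGANTCA (AP-1), TGACGTCA (CRE), TATAAA (the core promoter element) and the MEF2 motif, which did not overlap one another.
EGR1, chr5:138465229-138465528, plus strand: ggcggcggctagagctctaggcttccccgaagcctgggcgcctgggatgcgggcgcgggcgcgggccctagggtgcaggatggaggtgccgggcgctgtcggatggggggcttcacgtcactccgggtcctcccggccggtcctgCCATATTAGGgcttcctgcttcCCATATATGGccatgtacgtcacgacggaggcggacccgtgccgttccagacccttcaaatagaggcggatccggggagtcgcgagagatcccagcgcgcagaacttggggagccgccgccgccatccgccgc
FOS, chr14:75278578-75278877, plus strand: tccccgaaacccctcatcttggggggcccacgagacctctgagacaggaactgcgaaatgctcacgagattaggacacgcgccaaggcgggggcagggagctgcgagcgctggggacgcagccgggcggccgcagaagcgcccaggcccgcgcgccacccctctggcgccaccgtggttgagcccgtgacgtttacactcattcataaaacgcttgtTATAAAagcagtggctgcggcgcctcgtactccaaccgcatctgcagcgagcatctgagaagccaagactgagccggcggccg
FOSL2, chr2:28392608-28392907, plus strand: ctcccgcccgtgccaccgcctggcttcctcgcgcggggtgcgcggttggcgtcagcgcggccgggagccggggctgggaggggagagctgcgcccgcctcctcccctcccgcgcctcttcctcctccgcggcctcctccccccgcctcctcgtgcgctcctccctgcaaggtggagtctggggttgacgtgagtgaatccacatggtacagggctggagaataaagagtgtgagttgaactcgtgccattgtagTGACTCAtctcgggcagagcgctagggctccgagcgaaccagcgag
BTG1, chr12:92145797-92146096, minus strand: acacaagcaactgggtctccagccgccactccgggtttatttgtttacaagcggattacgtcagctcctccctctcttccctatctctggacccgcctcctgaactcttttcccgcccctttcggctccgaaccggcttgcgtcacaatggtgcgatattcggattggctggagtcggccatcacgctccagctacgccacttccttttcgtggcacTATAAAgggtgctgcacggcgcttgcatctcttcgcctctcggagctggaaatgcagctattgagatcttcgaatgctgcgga
ZFP36, chr19:39406597-39406896, plus strand: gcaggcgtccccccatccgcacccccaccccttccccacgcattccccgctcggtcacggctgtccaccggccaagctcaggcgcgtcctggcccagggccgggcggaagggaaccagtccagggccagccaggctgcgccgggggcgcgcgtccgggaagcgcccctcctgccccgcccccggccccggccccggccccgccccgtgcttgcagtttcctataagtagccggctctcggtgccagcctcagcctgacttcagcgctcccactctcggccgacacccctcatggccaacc

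Shares are given over the 9941 promoters of tested genes, and over all 35116 promoters in brackets. In EGR1 the capitals are 2 CArG boxes, at -105 and -83 from the start, and EGR1 was the single member of the 9 with one, against 1.01% (1.29%). FOSL2 held the one AP-1 match, at 5 bases after the start, against 4.3% (7.71%). The TATA box stood at -33 in FOS and BTG1 and at -31 in JUNB, 3 of 9 against 5.57% (11.5%). The MEF2 motif was found in JUN alone, as CTATTTTTAG at -55, against 1.38% (2.99%), and JUN did not pass between the guides. No CRE match was present in the 9, against 3.37% (1.85%). The ZFP36 window carried none of these 5 motifs. Of the motifs not marked, the GC box GGGCGG was in 7 of 9, against 69.7% (45.0%). CCGGAA of ETS factors was in IER2, against 31.2% (17.2%), and AGATAA of GATA factors in JUN, against 5.24% (10.3%). The NF-kB motif was in none, against 14.8% (12.3%). A match is a string of letters and no evidence of a bound factor. Only exact strings inside the windows were counted, so sites further upstream and near matches were left out. TGACGTTT in FOS and TGACATCA in JUN, for example, resemble the CRE and were not counted. A motif without a match is therefore no evidence that the gene lacks such a site.

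ZFP36, the gene for tristetraprolin, was higher under the HDAC7 guide in all replicates. ZFP36 (chr19:39406813-39409412, plus strand) had 21.3, 24.5 and 25.8 CPM in sgHDAC7, against 12.6, 13.6 and 14.7 CPM in sgNT. Every sgHDAC7 library lay well above every sgNT library, replicate 1 included. ZFP36 rose 1.75-fold (log2 0.81 ± 0.13, edgeR adjusted p = 0.018). The log2 ratio was 0.73 in replicate 1 and 0.81 over replicates 2 and 3. No other annotated gene overlaps it.

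ZFP36 acts on AU-rich elements, and its own message and that of FOS carry them, so the richest 30-base stretch of 3′ UTR is shown for the 3 genes of the set with the full nonamer TTATTTATT. Capitals mark ATTTA pentamers. Letters are DNA, read from GENCODE 29 (GRCh38) transcripts on the strand of the gene.
FOS, chr14, plus strand, 3′ UTR bases 633 to 662: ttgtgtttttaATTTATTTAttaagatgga
ZFP36, chr19, plus strand, 3′ UTR bases 489 to 518: cctttATTTAtgacgactttATTTAttcta
FOSL2, chr2, plus strand, 3′ UTR bases 3900 to 3929: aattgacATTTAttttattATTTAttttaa

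The ZFP36 3′ UTR held 5 pentamers in 713 bases, which 5.94% of 1179 tested genes with a 3′ UTR of like length (within 20%) matched or exceeded. FOS held 5 in 806 bases, and 7.62% of 1207 genes of like length held as many or more. In FOSL2 the 9 pentamers are spread over 4864 bases, and 60.4% of 843 genes of like length held as many or more. The nonamer occurred in 8.79% of 11124 genes overall. JUN had 3 pentamers, JUNB 2, BTG2 2, EGR1 1, TRIB1 1, BTG1 5 in a long 3′ UTR of 3802 bases, and IER2 0. Of the 3 genes with the nonamer, ZFP36 was higher between the guides, FOSL2 lower and FOS higher with the replicate 1 term, so they did not share a direction.

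BTG1 and BTG2 are paralogous antiproliferative proteins that promote deadenylation. BTG1 (chr12:92140278-92145897, minus strand) had 10.2, 10.4 and 8.98 CPM in sgHDAC7, against 13.9, 17.3 and 16.5 CPM in sgNT. The sgHDAC7 libraries were all lower and close together. BTG1 fell 1.61-fold (log2 -0.69 ± 0.14, edgeR adjusted p = 0.0366). Without sgHDAC7 replicate 1, or without any one library of replicates 2 and 3, it did not pass (edgeR adjusted p = 0.07 to 0.167). LINC01619 on the same strand and AC025164.1 on the other overlap BTG1, and a pseudogene, BTG1P1, exists, so some of its reads may be shared.

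BTG2 (chr1:203305491-203309602, plus strand) had 20.9, 30.6 and 32.1 CPM in sgHDAC7, against 11.6, 28.9 and 26.6 CPM in sgNT. The groups overlapped, and the lowest library of each group was replicate 1. BTG2 had a log2 difference of 0.32 ± 0.29, at an edgeR adjusted p of 0.603. In the fit with a replicate 1 term it was 0.37 ± 0.13, at an edgeR adjusted p of 0.0857. The paralogs thus had values of opposite sign, one past the test and one not, and the difference between them was not tested.

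TRIB1, a pseudokinase that brings C/EBP alpha to the ubiquitin ligase COP1, is on chr8:125430321-125438405 (plus strand). It had 20.9, 13.6 and 14.2 CPM in sgHDAC7, against 7.41, 5.57 and 7.13 CPM in sgNT. The lowest sgHDAC7 library was well above the highest sgNT library. TRIB1 rose 2.42-fold (log2 1.28 ± 0.21, edgeR adjusted p = 0.02). Its log2 ratio was 1.44 in replicate 1 and 1.08 over replicates 2 and 3.

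Per kilobase of exon (GENCODE 29, whose gene models need not be those of the authors), the order of mean levels in sgHDAC7 was IER2 (44.0 CPM per kb), JUNB (27.6), ZFP36 (11.9), BTG2 (10.1), EGR1 (5.73), TRIB1 (3.92), FOS (2.92), JUN (2.15), BTG1 (2.03) and FOSL2 (1.44). In sgNT it was IER2 (47.8 CPM per kb), JUNB (21.8), BTG2 (8.10), ZFP36 (6.79), EGR1 (4.97), FOSL2 (4.08), BTG1 (3.28), JUN (1.91), TRIB1 (1.62) and FOS (0.901). IER2 and JUNB stood clear of the rest in every library. Below these, each gene overlapped its neighbour in the order between libraries, in both groups, except BTG1 and JUN in sgNT (2.86 to 3.56 and 1.7 to 2.04 CPM per kb). FOSL2 was last in sgHDAC7 and sixth in sgNT.

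Replicate 1 set the largest differences in the set. Of the 10 genes, 4 differed between replicate 1 and replicates 2 and 3 in the edgeR fit with both guides, 3 lower in replicate 1 and 1 higher, against 7.01% of all genes. This split was known when the genes were chosen, so the counts are a description. FOS was lower in replicate 1 by the widest margin (log2 -4.52 ± 0.37, edgeR adjusted p = 3.53e-05), with 143 and 192 counts in sgHDAC7 replicates 2 and 3 beside 6 in replicate 1, and 55 and 37 counts in sgNT beside 3. EGR1 was lower as well (log2 -1.79 ± 0.17, edgeR adjusted p = 9.68e-05), and so was BTG2 (-0.88 ± 0.14, edgeR adjusted p = 0.00349). FOSL2 was higher in replicate 1 (log2 0.79 ± 0.11, edgeR adjusted p = 0.00139). The other 6 genes did not pass, and IER2 differed by -0.05 in sgHDAC7 and -0.03 in sgNT on the log2 scale. The labels do not say what sets replicate 1 apart, and its cause was not tested.

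**Figure D3:**
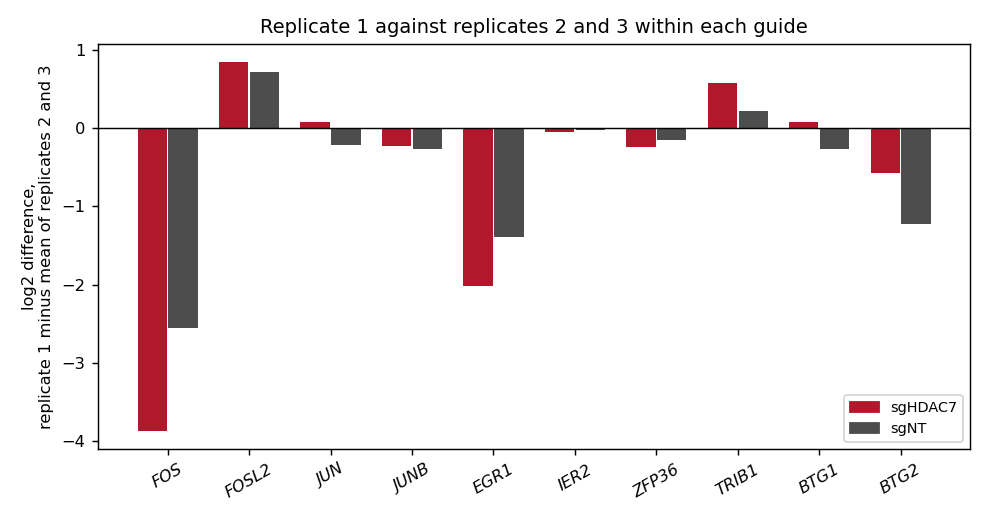
Difference in log2(CPM + 0.5) between replicate 1 and the mean of replicates 2 and 3, within sgHDAC7 (red) and sgNT (grey). FOS (-3.87 and -2.55), EGR1 (-2.02 and -1.39) and BTG2 (-0.57 and -1.23) were lower in replicate 1 under both guides, and FOSL2 (0.84 and 0.72) was higher.

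The guide difference itself was then set side by side in replicate 1 and in replicates 2 and 3. For FOSL2, ZFP36, JUNB and IER2 the log2 ratios were close together (for JUNB 0.36 in replicate 1 and 0.33 in replicates 2 and 3, and for IER2 -0.13 and -0.12). JUN had 0.36 and 0.06, and BTG1 had -0.43 and -0.78. The widest gap was that of FOS, with 0.30 in replicate 1 (6 and 3 counts, levels under the 0.5 CPM added) and 1.62 in replicates 2 and 3. EGR1 (-0.35 and 0.28) and BTG2 (0.83 and 0.18) followed. A test of this difference, an interaction of guide and replicate 1 in edgeR with 2 residual degrees of freedom, passed for 0 of the 10 genes, against 4.62% of all genes. The lowest adjusted p was that of BTG2 (interaction log2 0.68 ± 0.22, edgeR adjusted p = 0.0767), and 2 of the 10 had an unadjusted p under 0.05. The spread in that test comes from replicates 2 and 3 alone. For FOS the interaction was log2 -1.03 ± 1.17 (SE).

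**Figure D4:**
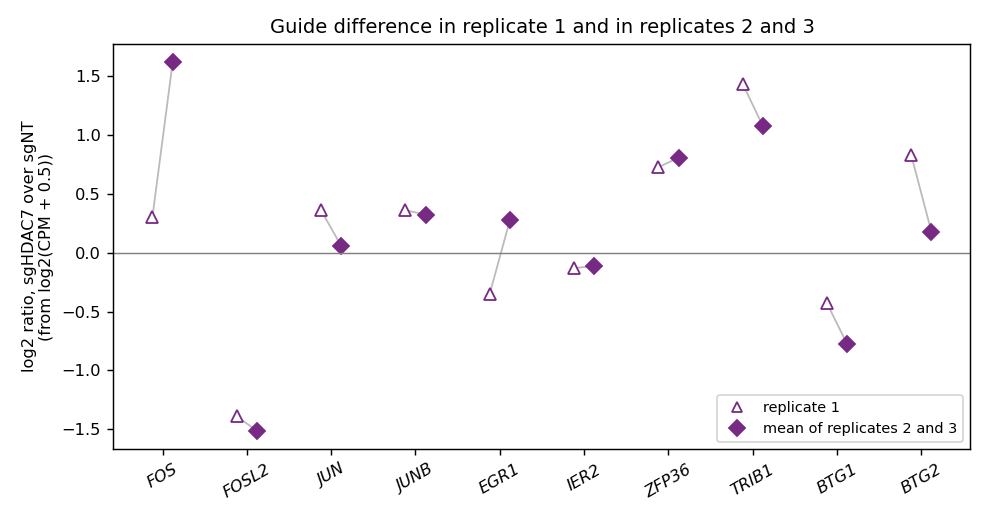
Log2 ratio of sgHDAC7 over sgNT for the 10 genes in replicate 1 (open triangles) and as the mean of replicates 2 and 3 (filled diamonds). The 2 values are close for FOSL2 and ZFP36 and lie on opposite sides of 0 for EGR1 (-0.35 and 0.28).

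Beyond the 10, 24 other immediate early genes were tested. With group alone 0 rose and 2 fell (ATF3 and MAFF), where 2.86% of all genes were called, and the median log2 fold change was 0.03. With a replicate 1 term 3 were higher and 5 lower, where 12.6% of all genes were called. ATF3, a stress-induced factor that can pair with JUN, had 1.53, 1.73 and 1.38 CPM in sgHDAC7, against 2.17, 10.9 and 12.4 CPM in sgNT (edgeR adjusted p = 0.0481; limma adjusted p = 0.0873). The sgNT excess lay in replicates 2 and 3, and the interaction with replicate 1 passed (edgeR adjusted p = 0.0187). MAFF, a small MAF protein, had 6.52, 4.06 and 5.75 CPM in sgHDAC7, against 16.7, 13.8 and 13.1 CPM in sgNT, a gap present in all replicates (difference -1.41 ± 0.20 in log2, edgeR adjusted p = 0.0105).

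FOSB, the paralog of FOS, had 1.45, 23.3 and 25.6 CPM in sgHDAC7, against 0.988, 4.4 and 4.75 CPM in sgNT. The layout was that of FOS: both replicate 1 libraries were low and sgHDAC7 replicates 2 and 3 were far above sgNT. The FOSB difference, log2 2.29 ± 0.82, missed the threshold (edgeR adjusted p = 0.164). In the fit with a replicate 1 term it was 2.24 and passed (edgeR adjusted p = 9.89e-05). FOSL1 (log2 0.32 ± 0.20) and JUND (391.8 ± 31.0 CPM in sgHDAC7 and 391.8 ± 37.3 CPM in sgNT) did not pass in either fit. Of the 11 AP-1 partner genes tested, 1 rose and 3 fell with group alone, and 2 were higher and 4 lower with a replicate 1 term. Among all genes, 2.86% and 12.6% were called in these fits. ATF3 and MAFF count in this list and among the immediate early genes. The one that rose was MAFG (log2 0.31 ± 0.06, edgeR adjusted p = 0.0366), and beside ATF3 and MAFF the Jun dimerisation protein JDP2 fell to 12.9, 13.3 and 13 CPM in sgHDAC7, against 17.1, 59.6 and 66.6 CPM in sgNT (edgeR adjusted p = 0.0419; limma adjusted p = 0.0738). The JDP2 log2 ratio was -0.39 in replicate 1 and -2.22 over replicates 2 and 3, and the interaction passed (edgeR adjusted p = 3.12e-06).

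Upstream of these genes, counts of calls are read against the 2.86% of all genes called with group alone and the 12.6% called with a replicate 1 term. None of the 11 SRF, ELK and CREB factor genes passed edgeR, limma or DESeq2 (1 at an unadjusted p under 0.05 in edgeR), with a range of -0.38 to 0.22 in log2 fold change, and 0 of the 11 were called with the replicate 1 term. None of the 22 MAP kinase genes passed in these 3 tools either (3 at an unadjusted p under 0.05 in edgeR), with a median of 0.05. With the replicate 1 term 4 of the 22 were called: RPS6KA4, MKNK2 and MAP2K2 higher (log2 0.31, 0.22 and 0.19) and MAP2K1, which encodes the kinase MEK1, lower (log2 -0.30). Of 9 ERK feedback genes 1 passed with group alone: ETV5, an ETS factor induced by ERK signalling, fell to 24.2, 20.4 and 18.9 CPM in sgHDAC7, against 42.3, 50.8 and 54.8 CPM in sgNT (difference -1.22 ± 0.13 in log2, edgeR adjusted p = 0.00275). With the replicate 1 term 4 of the 9 were called: ETV5, its paralog ETV4 (log2 -0.63) and the Sprouty-related inhibitor SPRED1 (log2 -0.33) lower, and the ERK phosphatase DUSP7 higher (log2 0.43, edgeR adjusted p = 0.00867).

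ZFP36 and BTG proteins recruit the CCR4-NOT deadenylase. With group alone, where 2.86% of all genes were called, of the 12 CCR4-NOT subunits 0 passed edgeR, limma or DESeq2 (3 at an unadjusted p under 0.05 in edgeR), and their log2 differences ran from -0.32 to 0.19. With the replicate 1 term, where 12.6% of all genes were called, 1 was lower, CNOT8, a catalytic subunit (log2 -0.31, edgeR adjusted p = 0.0335). On replicates 2 and 3 alone, and also without sgNT replicate 1, 4 of the 12 were called. Of all 13841 genes tested, these 2 fits called 2847 and 1588. Of 28 other decay genes 2 were higher and 3 lower with the replicate 1 term, and with group alone 1 rose: PABPC4, a poly(A)-binding protein, at 289 ± 9.55 CPM in sgHDAC7, against 235 ± 14.8 CPM in sgNT (edgeR adjusted p = 0.0487), a call lost under upper quartile or total-count scaling (edgeR adjusted p = 0.0522 and 0.0587). The ZFP36 paralog ZFP36L2 averaged 315 ± 45.9 CPM in sgHDAC7, against 229 ± 41.1 CPM in sgNT. Its log2 difference of 0.46 missed the threshold (edgeR adjusted p = 0.116) and passed once replicate 1 had a term (edgeR adjusted p = 0.000203). ZFP36L1 had a log2 fold change of -0.34 ± 0.17, BTG3 0.04 ± 0.32, TOB1 0.26 ± 0.18 and TOB2 0.18 ± 0.12, and none of these passed with group alone. Once replicate 1 had a term, ZFP36L1 was lower by edgeR (adjusted p = 0.0472, log2 -0.32).

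Of 20 symbols listed as messages known to be bound by ZFP36 through AU-rich elements, 11 were in the count table and 8 were tested. The 8 had a median log2 fold change of -0.52, and all were below 0, against a median of -0.0016 over all genes tested. In replicate 1 alone the log2 ratios of PIM1 and CCND1 were 0.15 and 0.07, and the rest were below 0. Some of these values are weak: PTGS2 had 8 to 32 counts per library and CCL4 12 to 21. The log2 fold change was -0.33 ± 0.33 (SE) for CCL4 and -0.06 ± 0.13 for CCND1. With group alone 2 of the 8 fell and 0 rose: VEGFA (log2 -1.53 ± 0.18, edgeR adjusted p = 0.00453) and IL1B (log2 -1.22 ± 0.14, edgeR adjusted p = 0.00338). With a replicate 1 term 4 of the 8 were lower. Among all genes, 2.86% were called with group alone and 12.6% with that term. MYC, also in the list, averaged 725 ± 69.5 CPM in sgHDAC7, against 900 ± 84.1 CPM in sgNT. It missed the threshold with group alone (log2 -0.31, edgeR adjusted p = 0.102) and was lower once replicate 1 had a term (edgeR adjusted p = 0.00185). VEGFA had 30.8, 28.1 and 29.6 CPM in sgHDAC7, against 58.9, 99.8 and 97.4 CPM in sgNT, and its guide difference was smaller in replicate 1 (interaction, edgeR adjusted p = 0.000654). IL1B had 31.7, 29.3 and 28.7 CPM in sgHDAC7, against 85.3, 64.3 and 58.8 CPM in sgNT. The list was drawn up with earlier results of these data known, and the median depends on which messages it holds. FOS, FOSL2 and ZFP36, whose 3′ UTRs hold the nonamer, were not in it. ZFP36 was higher in sgHDAC7, FOS was higher with the replicate 1 term, and FOSL2 was lower. Message stability was not measured.

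Among 6 tested partners and relatives of TRIB1, 1 fell: TRIB3, with 29.3, 20.2 and 20.1 CPM in sgHDAC7, against 33.1, 106 and 104 CPM in sgNT (edgeR adjusted p = 0.0377; limma adjusted p = 0.0577). In replicate 1 the 2 guides were close, and the interaction passed (edgeR adjusted p = 3.34e-10). TRIB2 (log2 0.19 ± 0.10) and COP1 (0.06 ± 0.07) did not pass. CEBPA, the gene for C/EBP alpha, had 6, 3 and 8 counts in sgHDAC7, against 14, 17 and 9 counts in sgNT. That was below the filter, and CEBPA was not tested. CEBPB, another C/EBP factor, had 17.6, 16.1 and 19.6 CPM in sgHDAC7, against 21.4, 43.1 and 47.2 CPM in sgNT. Its log2 difference of -1.07 ± 0.25 missed the threshold with group alone (edgeR adjusted p = 0.0544). With the replicate 1 term CEBPB was lower (log2 -1.02, edgeR adjusted p = 0.00268), and its interaction with replicate 1 passed (edgeR adjusted p = 0.00322). In the fit with the replicate 1 term 3 of the 6 were lower, TRIB3, CEBPB and MAP2K1, and 0 were higher. Among all genes, 2.86% were called with group alone and 12.6% with that term. MAP2K1 also counts among the MAP kinase genes.

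Among the called list genes, ETV5 (edgeR adjusted p up to 0.0421) and IL1B (up to 0.0485) passed whichever single library was left out. The ETV5 log2 ratio was -0.79 in replicate 1 and -1.40 over replicates 2 and 3, and its interaction with replicate 1 passed (edgeR adjusted p = 0.041). VEGFA missed the threshold without sgHDAC7 replicate 2 or 3 (edgeR adjusted p = 0.0599 and 0.0537). MAFF missed it without sgHDAC7 replicate 2 or 3 or sgNT replicate 2 (edgeR adjusted p = 0.0547 to 0.0715). ATF3, JDP2, MAFG, PABPC4 and TRIB3 passed only without sgNT replicate 1, with edgeR adjusted p of 0.0617 to 0.205 in the other 5 fits.

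**Figure D5:**
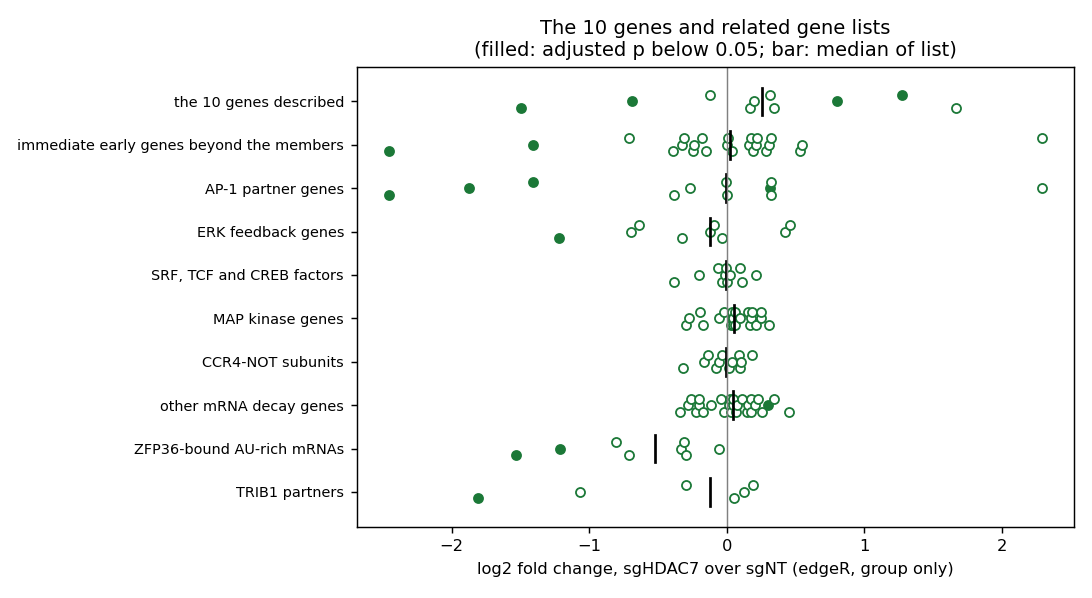
Log2 fold change of sgHDAC7 over sgNT (edgeR, group only) for the 10 genes and the tested genes of 9 related lists, filled where the adjusted p was below 0.05, with a bar at each median. Genes in more than 1 list are drawn in each. The CCR4-NOT, MAP kinase and SRF lists run from -0.38 to 0.31. The ZFP36-bound list runs from -1.53 to -0.06 and overlaps that range, though its median (-0.52) lies below it.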

How the data were processed

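Total counts per library, 10039693 to 12521195, set the precision. The authors deposited 1 table of whole-number read counts per gene for the 6 libraries; the deposited values are counts, although the name of the table calls them CPM (100% are whole, and totals differ between libraries). Per the submitters' processing notes, build hg38 and edgeR 3.32.1 were used, with no role given. The sources used here do not name aligner, counter, annotation or strand. The NC columns were read as sgNT, the only other group. The table has 0 further columns.

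The 13841 of 16315 genes whose mean CPM reached 1 were tested with edgeR 4.0.16 (quasi-likelihood, TMM, group only, R 4.3.3), two-sided, with Benjamini-Hochberg adjustment over all genes and a threshold of 0.05. CPM are TMM-scaled, and SE is the size of the log2 fold change divided by √F. limma 3.58.1 and DESeq2 1.42.0 were alternatives. The members and lists were chosen with earlier results of these data known. Genes named are the members, their paralogs, HDAC7 and list genes past the threshold. Others (HOOK2, HBG2, CNOT8, SPRED1, DUSP7, ETV4, MYC, COP1, CEBPA, CEBPB, RPS6KA4, MKNK2, MAP2K1, MAP2K2, PIM1, CCND1, PTGS2, CCL4, CDH1, CD79A) were chosen after their values were seen. The replicate 1 contrast and the interaction were added after seeing the data. Level ratios by replicate use log2(CPM + 0.5). In 3 runs of simulated counts for 13841 genes, edgeR compared sgHDAC7 with sgNT. It called 49.3% of genes set to 1.5-fold and 77% of genes set to 2-fold, and 8.02% of its calls were false. The simulated libraries were drawn independently, without the shift of replicate 1 seen in the data, so these rates need not hold for the data.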

Additional observations from a re-analysis of the deposited data

How the results depend on the processing

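Between the guides, 396 genes were called; the count was 711 with DESeq2, 998 with the replicate number as a block (replicate block), 1743 with the replicate 1 term, 2847 on replicates 2 and 3 alone, and 27 to 1588 when single libraries were left out. Of the 10 genes, 4 were called, 6 in the block, replicate 1 and replicates 2 and 3 fits, and 0 to 4 when single libraries were left out. These fits share the same libraries. The replicate numbers were not shown to pair the samples (correlation of deviations 0.303, 0.107 and 0.097 for numbers 1, 2 and 3), and the block is therefore no paired analysis. Not every library correlated best with its own number. ZFP36, TRIB1, FOSL2 and BTG1 kept their sign in all 17 alternatives, with log2 ranges of 0.74 to 0.87, 1.04 to 1.38, -1.86 to -1.21 and -0.81 to -0.63. EGR1 ran from -0.20 to 0.62 and BTG3 from -0.114 to 0.2814 when single libraries were left out. JUND, at 0, turned to 0.001 with limma (pseudocounts 0.5 and 1) and the block, 0.0014 with upper quartile scaling and the replicate 1 term, 0.0031 without a filter and 0.0185 on replicates 2 and 3, and ran from -0.0715 to 0.0815 without single libraries. HOOK2 was 0.1074 on replicates 2 and 3 and -0.1881 to 0.0316 without single libraries. The cause was not tested. Depth limits FOS in replicate 1, at 6 and 3 counts.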
